A study of Mus musculus with 22 samples.

Results

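The genes described here are the mouse zinc finger genes whose symbol in the array's platform annotation is Zfp followed by a number from 700 upward, at most 3 digits long, with or without a letter, counting probesets that carry a single symbol. There were 48 such genes among the 22251 symbols with values, each on its own probesets along the exons. The highest number among them was Zfp862, and many genes numbered above it are listed on the platform under older names. Expression was compared between whole brains of adult male mice from a pair of inbred strains, 12 naive DBA/2J (D2) and 10 naive C57BL/6J (B6) animals, with the total RNA of 1 mouse on each Affymetrix Mouse Exon 1.0 ST array. No animal was treated, and all were males. Values are log2 RMA values of fluorescence. Arrays count no reads, and precision is limited by their number. Arrays of the same strain correlated at a median r of 0.945 across probesets and arrays of different strains at 0.935.

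Most Zfp symbols name genes for C2H2 zinc finger proteins. In these a pair of cysteines and a pair of histidines hold a zinc ion, and each finger can contact DNA. Many of these proteins also carry a KRAB domain, which binds the corepressor TRIM28 (KAP1). Which of the members carry it was not examined here. TRIM28 brings in the histone methyltransferase SETDB1 and HP1 proteins, and a main known target of this silencing is endogenous retroviruses. The family has grown by gene duplication in clusters, so its members resemble each other in sequence, and how far probes of 1 member respond to transcripts of another was not tested. The probes follow a reference genome that is of B6 origin, so a base that differs in D2 can weaken binding there at the same transcript level. Known D2 variants were not used here.

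Of the 541 probesets of the 48 genes that had values, 468 were kept, because their mean across all 22 arrays reached 1.44, the median of such means over the whole table. A gene's value on an array is the median of its kept probesets. It was computed for the 43 members with at least 3 of them (median 8, range 3 to 29). Zfp719 and Zfp853 kept 2 probesets each, Zfp708 and Zfp819 kept 1, and Zfp820 kept 0 of 2, and these 5 genes were left out of the gene test. Of the kept probesets, 3 were below the filter level in D2 and 6 in B6, and the rest reached it in both strains. The 43 tested members lie on 12 chromosomes in the RefSeq gene table of GRCm38.p6, with 10 on chromosome 7 and 6 each on chromosomes 6 and 8. No source used here gives the build of the array design.

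Of the 43 tested members 3 were called different between the strains. Zfp791, Zfp758 and Zfp821 fell in D2, 0 rose and 40 were not called (limma across all 16016 genes, Benjamini-Hochberg adjusted p under 0.05). This is 6.98% of the 43 tested members, beside 10.8% of all genes tested. Over all genes 2.57% were called higher and 8.26% lower in D2. At an unadjusted p under 0.05, 2 members were higher (Zfp862 and Zfp771) and 4 lower in D2, beside 25.3% of all genes at that p. The median difference of the members, D2 minus B6, was -0.07 on the log2 scale and that of all genes -0.05. The differences of members ran from -0.55 to 0.36, with 28 below 0 and 15 above, and 20 lay within 0.1 of 0. In 0 of the 43 did the D2 and B6 arrays separate without overlap, beside 1.18% of all genes that were called and did not overlap.

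**Figure D1:**
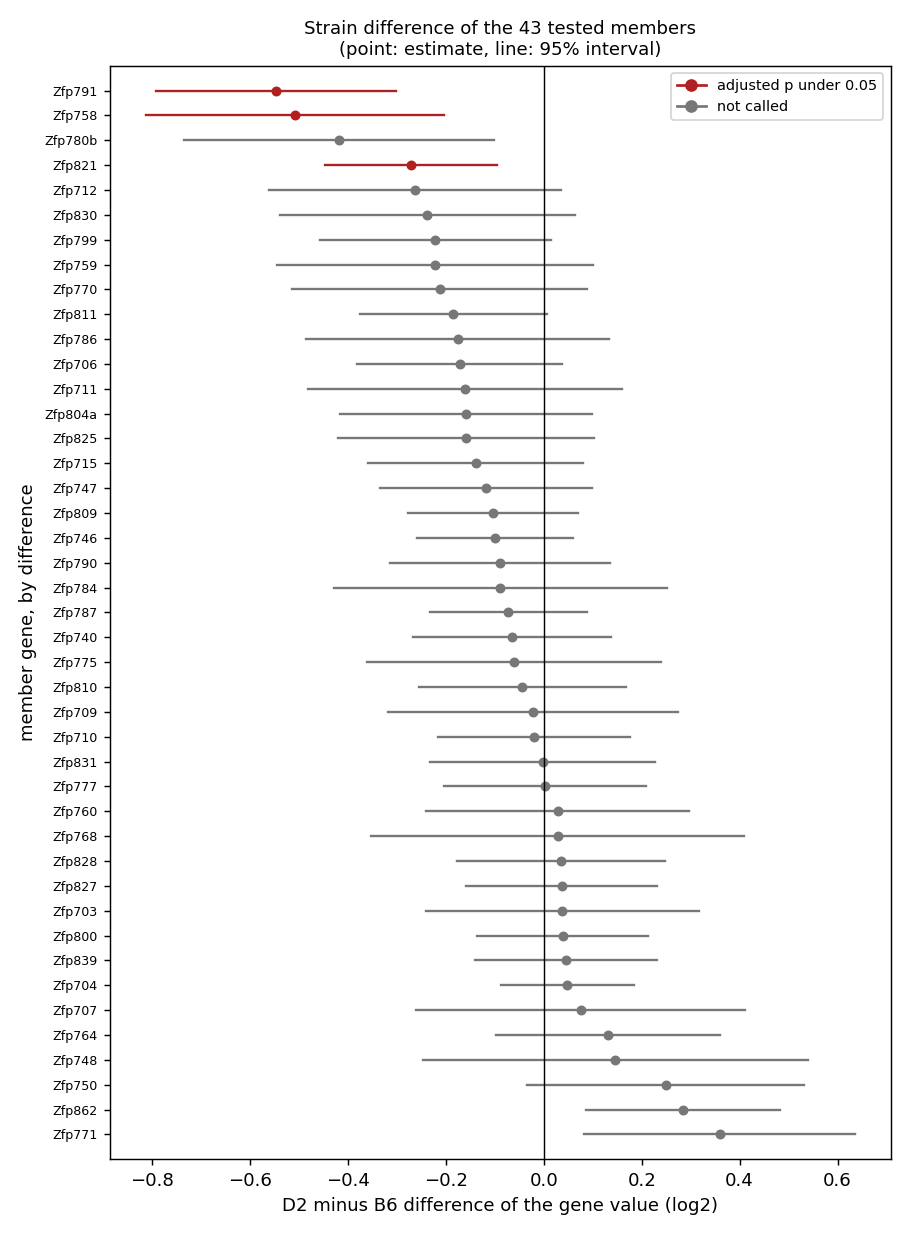
Difference of the gene value between the strains, D2 minus B6 (log2, x axis), for each of the 43 tested members, with points for the estimate and lines for its 95% interval from the limma fit. The 3 called members, in red, lie at -0.55, -0.51 and -0.27, and most of the others have intervals across 0.

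Which members were called changed with the scaling. After centring every array on its median gene value, 2 members were called higher (Zfp862 and Zfp771) and 2 lower (Zfp791 and Zfp758) in D2, and the members' median difference was 0.03 beside 0.05 for all genes. Of all genes 11.1% were called after centring. The share of calls lower in D2 over all genes was then 42.5%, against 76.3% without centring. With the median over all probesets of each array as covariate, 0 members were called by limma (9 at an unadjusted p under 0.05). That array median averaged 1.48 ± 0.018 in D2 (SD, n = 12) and 1.44 ± 0.018 in B6 (SD, n = 10). Its ranges, 1.45 to 1.51 in D2 and 1.41 to 1.47 in B6, overlapped in part. Because this median differed with strain, the fit could separate it from strain only in part, and the fit called 3.09% of all genes. D2 arrays 13, 14 and 19, which correlated least with their strain in an earlier analysis of these data, were left out in 1 alternative fit. There 2 members were called higher (Zfp771 and Zfp862) and 1 lower (Zfp791), beside 7.57% of all genes called.

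The 3 called members are shown first with the 250 bases before their RefSeq start in GRCm38.p6, as the DNA at which their transcription begins in the B6 reference, 5′ to 3′ on the gene's strand. Capitals mark matches, on either strand, to the GC box (GGGCGG), the CCAAT box (CCAAT), the TATA box (TATAAA) or a YY1 core (AAGATGGC). The window of Zfp791 is chr8:85123096-85123345 on the minus strand, the first of 2 listed starts. That of Zfp758 is chr17:22361213-22361462 on the plus strand, its listed start. That of Zfp821 is chr8:109705258-109705507 on the plus strand, the first of 3 listed starts.
Zfp791: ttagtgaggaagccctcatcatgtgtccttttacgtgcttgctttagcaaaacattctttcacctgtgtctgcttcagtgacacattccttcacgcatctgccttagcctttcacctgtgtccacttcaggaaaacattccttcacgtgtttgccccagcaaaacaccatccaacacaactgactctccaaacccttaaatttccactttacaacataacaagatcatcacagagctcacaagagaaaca
Zfp758: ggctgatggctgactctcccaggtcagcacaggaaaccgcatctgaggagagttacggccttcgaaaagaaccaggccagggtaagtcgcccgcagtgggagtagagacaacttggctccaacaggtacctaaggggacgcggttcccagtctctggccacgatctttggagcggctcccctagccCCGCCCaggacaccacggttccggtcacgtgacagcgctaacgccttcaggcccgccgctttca
Zfp821: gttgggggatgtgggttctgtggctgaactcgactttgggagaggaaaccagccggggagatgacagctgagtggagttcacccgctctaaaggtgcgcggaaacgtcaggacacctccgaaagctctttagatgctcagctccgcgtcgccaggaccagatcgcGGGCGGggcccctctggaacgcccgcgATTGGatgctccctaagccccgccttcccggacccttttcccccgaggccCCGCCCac
Zfp791 held none of the 4 motifs and 3 CpG dinucleotides, Zfp758 held 1 GC box and 17 CpG, and Zfp821 held 2 GC boxes, 1 CCAAT box and 20 CpG. Over the 39 members with an entry in the promoter table, the median was 15 CpG, against 6 over 27025 genes. Those 27025 genes were taken without a filter on gene class. A GC box was present in 48.7% of these members' windows and 32.9% of all windows, a CCAAT box in 46.2% and 34.5%, a TATA box in 7.69% and 13.0%, and a YY1 core in 2.56% and 1.59%. Such matches describe letters in a window and no binding was measured. 

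Zfp791, on chromosome 8, was the member with the largest difference. Its gene value was 2.72 on the lowest, 2.86 on the median and 3.17 on the highest D2 array, against 2.77, 3.54 and 3.85 in B6. The 12 D2 arrays lay close together, and 8 of the 10 B6 arrays were above all of them, while B6 arrays 9 (2.77) and 11 (2.80) lay among the D2 values. Zfp791 averaged 2.90 ± 0.15 in D2 (SD, n = 12) and 3.45 ± 0.40 in B6 (SD, n = 10). The gene fell by 0.55 ± 0.12 (SE; limma adjusted p = 0.00289), a level 1.46-fold lower in D2. Of its 8 kept probesets 7 were lower in D2, and 2 of them were called, at -1.01 and -0.89. With probesets kept only from the 75th percentile of all means upward, the difference was -0.33 and was not called (limma adjusted p = 0.207). In the gene table Zfp791 stands next to Man2b1, which encodes the lysosomal alpha-mannosidase and was also called lower in D2 (-0.61). Of the 6 protein-coding neighbours of the 3 called members, 5 were measured and Man2b1 was the called one.

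Zfp758, on chromosome 17, gave 2.04, 2.73 and 3.21 (lowest, median and highest) in D2, against 2.61, 3.23 and 3.78 in B6. The ranges overlapped, with 5 D2 arrays below all B6 arrays and 5 B6 arrays above all D2 arrays. The means were 2.74 ± 0.36 in D2 (SD, n = 12) and 3.25 ± 0.39 in B6 (SD, n = 10), and the difference was -0.51 ± 0.15 (SE; limma adjusted p = 0.0266). Of its 6 kept probesets 5 were lower in D2, and the median of the 6 differences was -0.50. The 2 called ones were at -1.01 and -0.97, and the others ran from -0.55 to 0.06. The probeset at -1.01 was 1 of 2 among the members' kept probesets in which the strains did not overlap. The share of such probesets over the whole table was not computed. The probeset at -1.01 ran from 4.66 to 5.96 with a median of 5.18 in D2, against 5.99 to 6.43 with a median of 6.26 in B6 (limma adjusted p = 2.0e-05). On the 18 arrays with file letter A alone the gene's difference was -0.38 (limma adjusted p = 0.144), and without D2 arrays 13, 14 and 19 it was -0.51 (limma adjusted p = 0.0528).

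Zfp821, on chromosome 8, had gene values of 4.33, 4.65 and 4.95 in D2, against 4.62, 4.89 and 5.09 in B6. Both strains covered much of the same range, with 5 D2 arrays below all B6 arrays. The means were 4.62 ± 0.22 in D2 (SD, n = 12) and 4.89 ± 0.13 in B6 (SD, n = 10), a difference of -0.27 ± 0.085 (SE; limma adjusted p = 0.0415). Its probesets went the other way in number. Of 15 kept probesets 9 were higher and 6 lower in D2, 0 were called, and their differences ran from -0.38 to 0.35 with a median of 0.05. With the mean of the probesets in place of their median, the difference of the gene was -0.01 (limma adjusted p = 0.943).

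**Figure D2:**
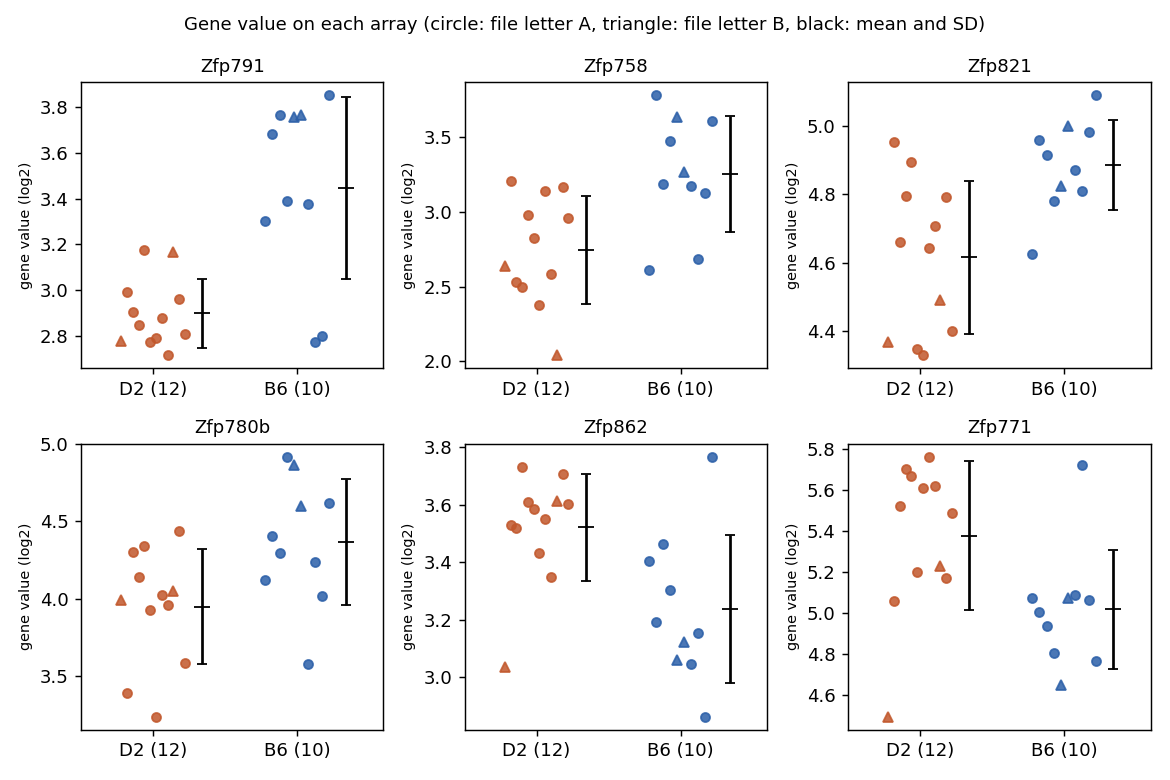
Gene value (log2, y axis) on each of the 12 D2 and 10 B6 arrays for 6 members, with circles for file letter A, triangles for file letter B and black bars for mean and SD. Zfp791, Zfp758 and Zfp821 were called lower in D2. Zfp780b, Zfp862 and Zfp771 had the largest differences among the members not called, each larger in size than that of Zfp821. The strains overlap in each panel.

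Some members with differences larger in size than that of Zfp821 missed the threshold. Zfp780b, on chromosome 7, was 3.24, 4.01 and 4.44 in D2, against 3.57, 4.35 and 4.92 in B6. Its difference was -0.42 ± 0.15 (SE; limma adjusted p = 0.0827), but the 18 kept probesets had a median difference of -0.05 and 7 of them were higher in D2. Zfp771, also on chromosome 7, was 4.49, 5.51 and 5.76 in D2, against 4.65, 5.04 and 5.72 in B6. B6 array 9 (5.72) stood above the other B6 arrays, and D2 array 13 (4.49) was below all B6 arrays. Its difference of 0.36 ± 0.13 (SE; limma adjusted p = 0.0883) became 0.47 without D2 arrays 13, 14 and 19, and was then called (limma adjusted p = 0.0134).

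Zfp862 had probesets that were mostly higher in D2 without a call of the gene. The current gene table lists it as Zfp862-ps, a transcribed pseudogene. The gene value was 3.04, 3.57 and 3.73 in D2, against 2.86, 3.17 and 3.77 in B6. Most D2 arrays were above most B6 arrays, but D2 array 13 was low and B6 array 12 was the highest of all. Its difference was 0.28 ± 0.096 (SE; limma adjusted p = 0.0563). Of its 29 kept probesets 25 were higher in D2, with 3 called at 0.86, 0.73 and 0.65. The gene was called in 5 of the 11 alternative fits, with each array centred (0.38), with the mean of the probesets (0.32), with the higher filter (0.34), with the file letter as block (0.28) and without D2 arrays 13, 14 and 19 (0.35).

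Zfp790, on chromosome 7, differed at its probesets more than at its gene value. The gene value was 4.44, 4.79 and 5.38 in D2, against 4.44, 4.96 and 5.18 in B6, with nearly the same range, and the difference of -0.09 ± 0.11 (SE) was not called (limma adjusted p = 0.647). Yet 16 of its 17 kept probesets were lower in D2, with a median of -0.34, and 4 were called, at -1.25, -0.58, -0.53 and -0.43. With the mean of the probesets Zfp790 was at -0.35 (limma adjusted p = 0.00055), and with the higher filter at -0.38 (limma adjusted p = 0.00349). Among the 43 tested members, the gene difference and the median of its probesets' differences had opposite signs in 9, 1 of them called (Zfp821).

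**Figure D3:**
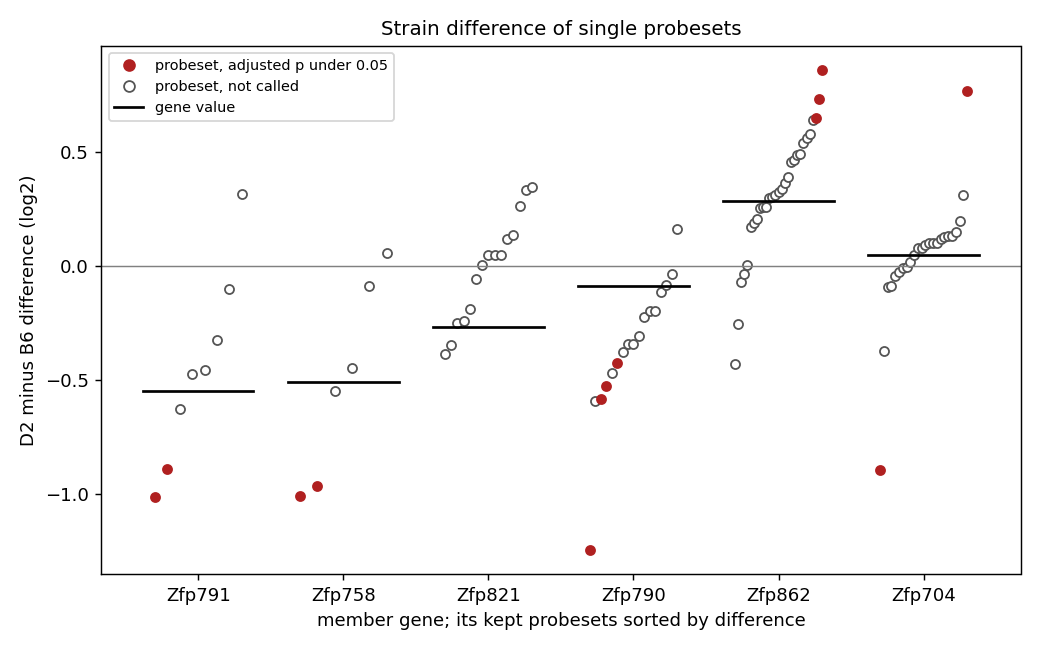
D2 minus B6 difference (log2, y axis) of every kept probeset of 6 members, sorted within each gene, with called probesets filled and a line at the difference of the gene value. In Zfp821 9 of 15 probesets lie above 0 while the gene value lies at -0.27, and in Zfp790 16 of 17 lie below 0 while the gene value lies at -0.09.

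At the level of single probesets, 15 of the 468 kept ones were called, 5 higher and 10 lower in D2, in 7 genes. This is read beside 4.06% of all kept probesets with 1 symbol (1.27% higher and 2.79% lower) and 3.91% of all kept probesets. All 15 reached the filter level in both strains. Apart from Zfp791, Zfp758, Zfp790 and Zfp862, calls fell in Zfp704, Zfp709 and Zfp712. Zfp712, on chromosome 13, had the second probeset whose strains did not overlap. It ran from 6.00 to 6.73 with a median of 6.59 in D2, against 6.81 to 7.19 with a median of 7.02 in B6, a difference of -0.51 ± 0.097 (SE; limma adjusted p = 0.00145), while the gene value differed by -0.26 (limma adjusted p = 0.261). Zfp709, on chromosome 8, had 1 probeset higher in D2 by 0.47 and a gene difference of -0.02. Zfp704, on chromosome 3, had 1 called in each direction, at 0.76 and -0.90, among 24 probesets whose gene value differed by 0.05.

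Exon usage was read from a splicing index, which subtracts the gene value of an array from the log2 value of each probeset there. Of 462 member probesets tested, 3 were called (limma adjusted p under 0.05, with the index differing by 0.5 or more), all lower in D2, in Zfp790, Zfp704 and Zfp862. Beside this, 1.66% of all probesets tested were called, and 13.9% of all genes had at least 1 call, against 3 of the 43 members. The index of the Zfp790 probeset was -4.36, -3.00 and -1.86 (lowest, median and highest) in D2, against -2.88, -1.82 and -0.56 in B6. The strains overlapped, and the difference was -1.16 ± 0.30 (SE; limma adjusted p = 0.045). The Zfp704 probeset was at -4.24, -3.12 and -2.76 in D2, against -3.24, -2.43 and -1.43 in B6, a difference of -0.94 ± 0.22 (SE; limma adjusted p = 0.022). In Zfp862 the index of 1 probeset was 0.43, 1.05 and 1.43 in D2, against 1.05, 1.51 and 1.98 in B6, a difference of -0.54 (limma adjusted p = 0.0105). The level of that probeset itself was not called (-0.25), while most of the gene's other probesets were higher in D2. The gene value and any D2 variant under the probes also enter the index, and their part in these calls was not tested.

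The remaining members gave intervals rather than calls. For 32 of the 40 members not called, the 95% interval of the difference lay within 0.5 of 0 on either side. Zfp746 encodes PARIS, a repressor of the PGC-1alpha gene and substrate of the ubiquitin ligase parkin. It was 4.59, 4.90 and 5.18 in D2, against 4.73, 5.01 and 5.25 in B6, and differed by -0.10 (interval -0.26 to 0.06). Zfp804a, whose human counterpart ZNF804A lies at a locus associated with schizophrenia, was 4.51, 5.26 and 5.69 in D2, against 5.08, 5.29 and 5.79 in B6. Its difference was -0.16 (interval -0.41 to 0.10), although all of its 8 kept probesets were lower in D2. In 3 tested members (Zfp706, Zfp804a and Zfp830) every kept probeset was lower in D2 and in 1 (Zfp750) every one was higher, and none of these 4 genes was called on the median of its probesets. With the mean of the probesets Zfp706 was called lower in D2 (-0.23, limma adjusted p = 0.0096). Zfp711 is X-linked, and mutations of its human counterpart ZNF711 cause intellectual disability. It differed by -0.16 (interval -0.48 to 0.16). Zfp809, which in mouse cells silences murine leukaemia proviruses by binding at their primer binding site, was at -0.10 (interval -0.28 to 0.07). Zfp827, whose human counterpart ZNF827 brings the NuRD complex to telomeres, was at 0.04 (interval -0.16 to 0.23). Zfp703, whose human counterpart ZNF703 is a breast cancer oncogene, was at 0.04 (interval -0.24 to 0.32). Zfp828, now Champ1, encodes a protein of chromosome attachment to the spindle and was at 0.04 (interval -0.18 to 0.25).

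The 4 members with 1 or 2 kept probesets were read in a fit that admitted genes with at least 1. Zfp819 was at -0.51 (limma adjusted p = 0.174) on 1 of its 8 probesets, Zfp708 at 0.25 (0.381), Zfp719 at 0.23 (0.359) and Zfp853 at 0.12 (0.648). None was called.

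Signals of different genes come from different probes and give no order of transcript abundance, so levels are given as signals only. The 5 members with the brightest signals were Zfp706 (7.05 over all arrays), Zfp827 (6.31), Zfp704 (6.09), Zfp825 (5.77) and Zfp828 (5.67). The 5 dimmest were Zfp750 (2.09), a regulator of epidermal differentiation, Zfp811 (2.18), Zfp775 (2.56), Zfp786 (2.74) and Zfp758 (2.98). Of the 43 members 6 differed between the strains by more than their own SD within strains. The share of all genes that did so is not given here. The pooled SD within strains had a median of 0.28 over the members, the largest being those of Zfp748 (0.49), Zfp768 (0.48) and Zfp784 (0.42) and the smallest that of Zfp704 (0.12). Zfp748 ran from 2.89 to 4.65 in D2, against 3.27 to 4.47 in B6.

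**Figure D4:**
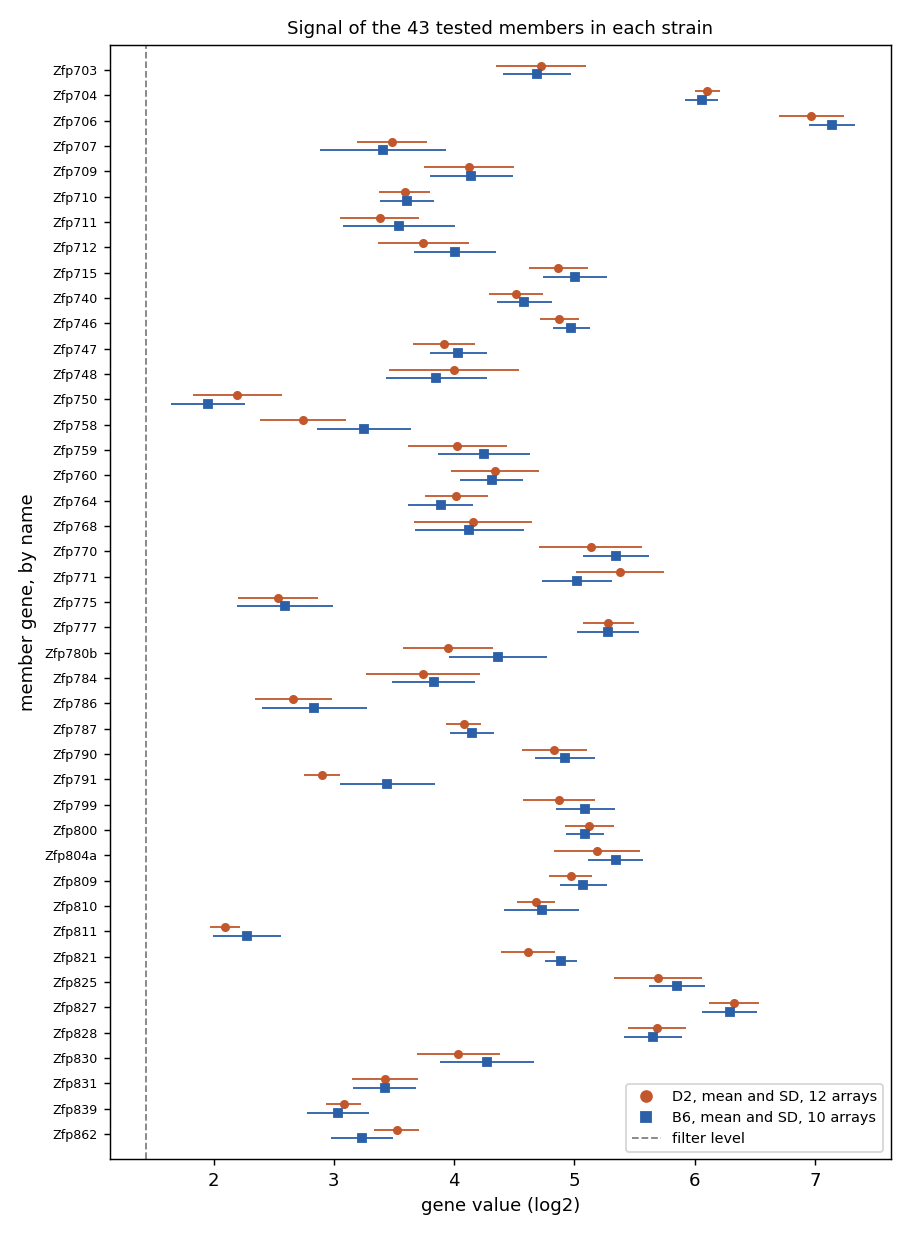
Gene value (log2, x axis) of the 43 tested members in D2 (mean and SD over 12 arrays) and B6 (mean and SD over 10 arrays), by gene name, with the filter level of 1.44 as a dashed line. Mean signals over all arrays run from 2.09 for Zfp750 to 7.05 for Zfp706, and the mean of Zfp791 is 2.90 in D2 and 3.45 in B6.

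Members that stand side by side among protein-coding genes formed 6 pairs. None of these pairs held a called gene. Zfp708, which stands beside Zfp712, and both genes of the pair Zfp719 and Zfp819 were not in the gene test. On chromosome 17 Zfp811 (-0.18) and Zfp799 (-0.22) were both lower without a call. On chromosome 6 Zfp777 (0.00) and Zfp746 (-0.10), and on chromosome 7 Zfp747 (-0.12) with Zfp768 (0.03) and Zfp764 (0.13), lay near 0.

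The silencing machinery that KRAB zinc finger proteins use was read from the same fit. It was taken as a list of 34 genes (TRIM28, H3K9 methyltransferases, HP1, NuRD, HUSH, DNA methylation and related factors). Of the 33 measured, 2 fell, 0 rose and 31 were not called. The calls make up 6.06% of the genes measured, beside 10.8% of all genes tested, where 76.3% of the calls were lower in D2. The median difference was -0.09, beside -0.05 for all genes. Cbx5, the gene of HP1alpha, fell by 0.31 (limma adjusted p = 0.0215), and Morc3, an ATPase of silent chromatin, fell by 0.28 (limma adjusted p = 0.0302). Each lost its call in 7 of the 11 alternative fits. Trim28 itself was at 0.14 and Setdb1 at -0.01, neither called. After centring the arrays, the called genes were instead Trim28 (0.23) and Atf7ip (0.26), both higher in D2.

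The lower numbered Zfp genes, Zfp1 to Zfp699, gave 23 calls among 224 tested (10.3%), 5 higher and 18 lower, with a median difference of -0.07. After centring the arrays 20 were called higher and 12 lower, and the fit with the median over all probesets of each array as covariate called 5 higher and 1 lower. The largest were Zfp277 (-1.07), Zfp459 (-0.99), Zfp420 (-0.84) and Zfp40 (-0.80). A further 45 platform symbols are older names of genes that the current table numbers in the same range, and these are outside the rule. Of the 31 tested, 7 were called (22.6%), 1 higher and 6 lower in D2. Zfp874a, listed on the platform as C330011K17Rik, had the largest difference (1.87 in D2 and 5.29 in B6, -3.42), followed by Zfp951 (-1.25) and Zfp961 (-1.23, platform symbol BC065788), and Zfp949 was the one that rose (0.50). The difference between these shares and that of the members was not tested.

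The labelled tissue was checked only by signal, which also depends on the probes. The 8 measured brain markers lay at percentiles 62.8 (Cx3cr1) to 99.9 (Snap25) of all gene values, with Gfap at 81.5. The 5 measured markers of other tissues lay at 15.2 (Alb) to 29.7 (Cd3e). These values rest on the kept probesets alone, 8 of 21 for Alb and 4 of 9 for Cd3e, against 18 of 19 for Snap25. Gfap fell by 0.80 in D2 and the other 7 brain markers were not called. Of the markers of other cells, both red blood cell genes fell, Hbb-b1 by 4.12 and Alas2 by 0.90, with a summed linear signal of 34.3 to 148 in D2, against 898 to 1340 in B6. Of 3 choroid plexus genes Folr1 fell by 0.61 and Otx2 by 0.49, while Ttr was not called (-0.16), with a sum of 1312 to 2010 in D2, against 1791 to 2087 in B6. Hbb-b1 and Ttr are the brightest genes of these lists and make up most of the sums. Of the other tissues' markers the heart gene Tnnt2 fell by 0.59 (5 genes, with a sum of 36.4 to 55.0 in D2, against 28.7 to 51.0 in B6). Their part in the differences of the zinc finger genes was not tested. In bulk tissue, fewer cells of a type, less RNA per cell and weaker binding of probes to D2 sequence cannot be told apart. Hbb-b1 was read from 3 kept probesets.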

How the data were processed

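The authors deposited log2 expression values per probeset for 22 arrays, and the submitters' processing notes list RMA, R 2.6.0 and the package affy 1.12.2. RMA subtracts background, quantile-normalizes the arrays and summarises the probes of a probeset. Its options and the probeset definition are not given in the sources used here. Per the labels, 24 arrays were hybridised and 2 that another scanner had read were left out. The table held 1201338 probesets, 10932 of them empty. Array file names begin with a number and a letter (A on 10 D2 and 8 B6 arrays, B on 2 of each strain), which the labels do not explain. The letter was tried as a block.

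Probesets were named from GEO's platform annotation, only where it gives 1 symbol. Chromosomes, current names and neighbours come from the RefSeq gene table and promoters from the RefSeq promoter table (GRCm38.p6). Tests were run in R 4.3.3 with limma 3.58.1 on all 595203 kept probesets, 16016 genes and 236114 index values, D2 minus B6, with Benjamini-Hochberg adjustment over each whole table. The functions were tested on simulated data with known changes. Figures were drawn with matplotlib 3.10.9.

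The members and lists were chosen with earlier results of these data known. Genes were named by rule: all called members, members with the most or largest exon usage calls, the 5 brightest and 5 dimmest, the 3 most variable within strains, and up to 4 called genes of the corepressor list and of Zfp1 to Zfp699. All other members named, such as Zfp712, Zfp709, Zfp780b, Zfp771, Zfp746 and Zfp804a, and the renamed genes were chosen after their values were seen.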

Additional observations from a re-analysis of the deposited data

Results flagged for a closer look

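In 5 of the 43 tested members a single B6 array stood apart from the other 9, with a gap to the nearest of them that was a large part of the whole B6 range (Dixon's test). Chance flags about 1 in 20 groups, and the 12 D2 arrays were not tested this way. Zfp771 was 5.72 on B6 array 9, with the next highest at 5.09. Zfp710 was 3.09 on B6 array 2, with the next lowest at 3.50. Zfp740 was 4.01 on B6 array 11 (next lowest 4.42), Zfp799 was 4.53 there (next lowest 4.93) and Zfp828 was 5.07 there (next lowest 5.54). B6 array 11 also had the highest median over all probesets among B6 arrays (1.47) and the lowest median of the members (4.05). None of the 5 genes was called different between the strains in the fit of all arrays, and Zfp771 was called higher in D2 in 3 alternative fits.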

How the results depend on the processing

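The 11 alternatives were set for the gene test, 8 for single probesets and 7 for exon usage. The same 11 for genes now named in the range were added after the data were seen. With the array median as covariate, limma called 0 members (9 at an unadjusted p under 0.05), 0 corepressor genes (4 unadjusted), 6 of the Zfp1 to Zfp699 genes, 4 genes now named in the range and 4 member probesets, and the members' median difference was 0.14. Of all 16016 genes 495 were called in that fit, 2718 with the mean of the probesets and 75 on letter B arrays, beside 1735 without these changes. With the mean of the probesets it called 6 members, 0 corepressor genes (5 unadjusted), 36 of the lower numbered genes and 13 of the renamed genes. With the 4 letter B arrays alone it called 0 members (7 unadjusted), 0 corepressor genes (3 unadjusted), 1 lower numbered gene and 3 renamed genes. Corepressor calls were 1 each without the filter, with the filter level reached in each strain and on letter A arrays alone, and 0 without D2 arrays 13, 14 and 19 (5 unadjusted). Requiring an index difference of at least 1 left 1 exon usage call. For this count and for the 4 member probesets above, no share over all probesets is given here. Zfp748 turned to -0.51 without the filter (limma adjusted p = 0.0399, main value 0.15), and Zfp784 to 0.28 with the mean of the probesets (limma adjusted p = 0.0329, main value -0.09). Zfp791 kept its call in 8 of 11 alternatives (-0.79 to -0.31), Zfp758 in 5 of 10 (-1.11 to -0.23) and Zfp821 in 4 of 11 (-0.48 to -0.01). The cause of these changes was not tested. No paired analysis was possible because the strains share no replicate numbers.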
